A study of Mus musculus with 6 samples.

Results

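A set of 10 genes of megakaryocytes and platelets was followed in bone marrow cells sorted as LT-HSCs, the blood stem cells with long-term activity. The mice were fed with or without serine and glycine. The genes were chosen by symbol as markers of megakaryocyte-primed progenitors and of platelets: Itga2b, Pf4, Gp1bb, Gp9, Gp6, Fli1, Rab27b, Treml1, Slc35d3 and Cd9. All 10 symbols were found among the 21878 genes listed, and 9 of the 10 were above 0 in at least 1 library, against 15509 of all genes. RNA sequencing covered 6 libraries of wild type (WT) mice: 3 from a control diet (CD) and 3 from a serine/glycine-free diet (SGFD), each eaten for 3 months. Cells were sorted as negative for lineage antigens, CD34 and CD135 and positive for c-Kit and Sca1. The labels used here give no age, sex or strain of the mice, and do not say whether a library was 1 mouse or a pool. P-values therefore measure the spread between these libraries, which may be partly technical.

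Megakaryocytes are the large marrow cells that shed platelets. Some LT-HSCs already carry mRNAs of this lineage, and megakaryocyte progenitors are thought to arise from such primed stem cells by a short route. Platelets use a set of surface receptors to stick to damaged vessels, and release alpha granules, which hold proteins such as chemokines, and dense granules, which hold serotonin, nucleotides and calcium. GATA and ETS family transcription factors, Fli1 among the latter, switch on many genes of this programme.

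With SGFD, 4 of the 8 genes that could be tested fell and 1 rose. Slc35d3, a transporter-like protein needed to form platelet dense granules, fell most, from 5.09 ± 0.556 to 0.936 ± 0.17 FPKM (SD, n = 3 per diet), 5.44-fold lower as a ratio of means. Pf4, the alpha granule chemokine platelet factor 4, fell from 10.1 ± 2.14 to 4.88 ± 1.24 FPKM, 2.06-fold lower. Treml1 and Fli1 fell by less. Itga2b, the alpha chain of the platelet fibrinogen receptor, rose from 36.1 ± 1.6 to 42.5 ± 1.48 FPKM. FPKM counts fragments relative to gene length and sequencing depth, and "fell" or "rose" means an adjusted p under 0.05 from limma fitted on log2(FPKM + 1) over the 10620 genes that reached 1 FPKM in 3 or more of 6 libraries. On that scale 59.4% of all tested genes passed, 41.8% as lower and 17.7% as higher with SGFD, so that 5 of 8 is near the share of the whole transcriptome. On the log2 scale the middle fold change was -0.22 for the 8 genes and -0.13 for the tested genes as a whole. The values of the diets did not overlap for 5 of the 8, against 65.2% of all tested genes.

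**Figure D1:**
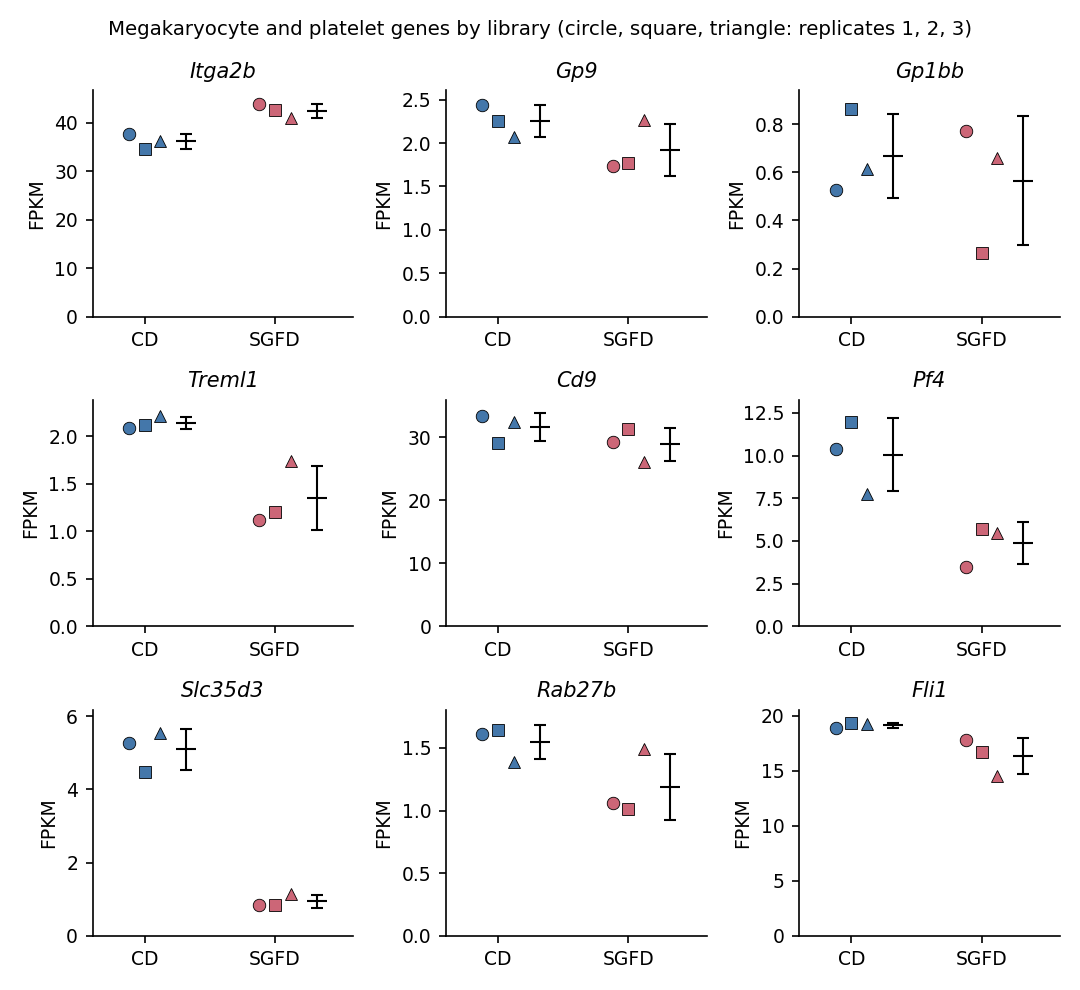
FPKM of 9 genes in each library (vertical axes from 0), CD in blue and SGFD in red, with circle, square and triangle for replicates 1 to 3 and the mean ± SD at the side of each group. Slc35d3, Pf4, Treml1 and Fli1 show no overlap between diets with SGFD lower, Itga2b shows none with SGFD higher, and Gp9, Gp1bb, Cd9 and Rab27b overlap; Gp6, listed at 0 throughout, is not drawn.

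The bases before the start of Itga2b, Pf4 and Slc35d3 are shown because Itga2b is the gene that rose and the others are those that fell most. Each run holds the 250 bases upstream of the RefSeq start in GRCm38.p6, read 5′ to 3′ on the strand of the gene. Capitals mark GATAA, a core of GATA factor motifs, or AGGAAG, a form of the ETS motif, on either strand; the letters of the motifs do not overlap each other here.
Itga2b, chr11:102469884-102470133, minus strand: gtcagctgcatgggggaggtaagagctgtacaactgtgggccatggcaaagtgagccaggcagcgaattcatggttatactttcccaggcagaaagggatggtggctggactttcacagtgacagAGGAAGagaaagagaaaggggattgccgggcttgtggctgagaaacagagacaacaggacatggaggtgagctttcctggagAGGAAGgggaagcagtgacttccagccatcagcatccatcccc
Pf4, chr5:90772185-90772434, plus strand: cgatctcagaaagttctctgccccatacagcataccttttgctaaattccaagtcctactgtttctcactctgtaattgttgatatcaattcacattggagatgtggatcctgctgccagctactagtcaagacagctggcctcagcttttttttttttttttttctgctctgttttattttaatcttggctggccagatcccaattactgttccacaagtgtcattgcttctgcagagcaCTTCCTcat
Slc35d3, chr10:19851460-19851709, minus strand: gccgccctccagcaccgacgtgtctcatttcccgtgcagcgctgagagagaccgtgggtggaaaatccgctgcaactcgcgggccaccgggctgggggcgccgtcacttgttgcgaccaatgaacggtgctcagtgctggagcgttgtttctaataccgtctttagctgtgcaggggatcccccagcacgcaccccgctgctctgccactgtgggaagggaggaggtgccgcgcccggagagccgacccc

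Itga2b held the ETS letters at 125 to 120 and at 43 to 38 bases before its start, Pf4 held them on the other strand at 9 to 4 bases before its start, and Slc35d3 held neither motif. Windows were found for 8 of the 10 genes, and 4 of the 8 held AGGAAG (Itga2b, Pf4, Gp9 and Cd9) and 2 held GATAA (Gp9 and Gp6). Of all 32851 promoter windows of that length 29.5% held AGGAAG and 22.6% held GATAA. A match is a string of letters and not a measured binding site. RefSeq places Itga2b on chromosome 11 from 102453297 to 102469883, Pf4 on chromosome 5 from 90772435 to 90773383 and Slc35d3 on chromosome 10 from 19847917 to 19856634, which reaches beyond the start used for its window. The RefSeq span of Gp9 on chromosome 6, from 87776131 to 87779786, covers all of its window at 87777820 to 87778069. The span of Gp6 also reaches into its window. Treml1 lies on chromosome 17 from 48359916 to 48367176 and Fli1 on chromosome 9 from 32422204 to 32543432.

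The levels of the 10 genes spanned a wide range in CD, and FPKM allows them to be compared per length of the gene. Itga2b was the highest at 36.1 FPKM, above 80.2% of tested genes, followed by Cd9 at 31.6, Fli1 at 19.2, Pf4 at 10.1 and Slc35d3 at 5.09 FPKM. Gp9 at 2.25 and Treml1 at 2.14 FPKM could not be ordered, since their CD values overlapped, and Rab27b at 1.55 and Gp1bb at 0.668 FPKM came next. With SGFD the first 4 kept that order, while Slc35d3 went from the fifth place to the eighth, where its values overlapped those of Rab27b. Gp6 was listed at 0 in all 6 libraries. Gp1bb reached 1 FPKM in none of them, and neither was tested.

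Some values rest on few fragments. Whole fragment numbers were recovered from the FPKM values, up to a factor per gene, and came to 18208509 to 19304007 per library. Per library these were 11 to 34 fragments for Gp1bb, 27 to 52 for Treml1, 39 to 133 for Pf4 and 65 to 418 for Slc35d3, against 2234 to 2935 for Itga2b. The smallest gene length that the authors' values imply was 3554 bases for Itga2b and 608 for Pf4, close to the longest GENCODE transcripts of 3437 and 588 bases. It was 3102 bases for Gp9, whose longest GENCODE transcript has 881, and 4153 for Slc35d3 against 2630. For Fli1 it was 4400 against 3318, and for Rab27b 7811 against 6891. The levels of these genes per length therefore depend on the gene model used.

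Itga2b, also known as CD41, pairs with the product of Itgb3 to bind fibrinogen. Its FPKM values were 37.7, 34.5 and 36.2 in CD replicates 1 to 3 and 43.8, 42.7 and 40.9 in SGFD replicates 1 to 3. Every SGFD library was above every CD library, with a log2 fold change of 0.23 ± 0.05 (SE; adjusted p = 0.00299), 0.36 above the median gene. Itga2b passed as higher in 15 of 16 alternative fits, among them median-ratio scaling (0.351, adjusted p = 0.000229) and quantile normalization (0.21, adjusted p = 0.00655). With each library scaled to the same FPKM sum the value was 0.088 and did not pass (adjusted p = 0.179). FPKM summed to 427769 to 433592 in CD and to 464222 to 485048 in SGFD. The partner gene Itgb3 had 4.62 ± 0.407 FPKM in CD and 5.32 ± 0.416 in SGFD and did not pass (adjusted p = 0.118), though it did, as higher, after median-ratio scaling (0.0187) and quantile normalization (0.00256).

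Gp9 and Gp1bb encode small leucine-rich subunits of the GPIb-IX-V complex, the platelet receptor for von Willebrand factor. Gp9 had 2.44, 2.25 and 2.07 FPKM in CD and 1.73, 1.77 and 2.26 FPKM in SGFD. SGFD replicate 3 lay among the CD values, and the log2 fold change of -0.16, with a 95% interval from -0.38 to 0.07, did not pass (adjusted p = 0.196). With 0.1 or 0.01 FPKM added in place of 1 it was -0.226 or -0.237 and did not pass (0.204 and 0.206). Gp1bb had 0.526, 0.865 and 0.612 FPKM in CD and 0.773, 0.264 and 0.66 FPKM in SGFD. The diets overlapped, and the exons of Gp1bb overlap those of Sept5 on the same strand in GENCODE, so fragments from the shared part could come from either gene. Of the other subunits, Gp5 fell from 4.13 ± 0.349 to 3.01 ± 0.522 FPKM (adjusted p = 0.0154). It no longer passed with CD replicate 1 left out (0.0598) or SGFD replicate 1 left out (0.0615), after median-ratio scaling (0.0585) and after quantile normalization (0.486). Gp1ba stayed below the filter, at 0.78 ± 0.104 FPKM in CD and 1.02 ± 0.0362 in SGFD.

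Gp6 is the platelet collagen receptor, which signals through the Fc receptor gamma chain. No fragment of Gp6 was listed in any library, while Fcer1g, the gene of that chain and one that other myeloid cells also use, rose from 21 ± 2.07 to 28.8 ± 3.91 FPKM (adjusted p = 0.00336).

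Treml1 encodes a receptor that platelets store in alpha granules and expose on activation. Its values were 2.09, 2.12 and 2.21 FPKM in CD and 1.12, 1.2 and 1.74 FPKM in SGFD. All SGFD values were lower, with replicate 3 nearest to CD, and the log2 fold change was -0.43 ± 0.11 (SE; adjusted p = 0.00723). After quantile normalization it was -0.153 and did not pass (0.323). With 0.1 or 0.01 FPKM added in place of 1 it was -0.648 or -0.684 and passed (0.00883 and 0.00922). Cd9, a tetraspanin abundant on platelets and also carried by other marrow cells, had 33.3, 29.1 and 32.4 FPKM in CD and 29.3, 31.3 and 26 FPKM in SGFD. The diets overlapped and the log2 fold change of -0.13, with a 95% interval from -0.29 to 0.04, did not pass (adjusted p = 0.155) and equalled the median gene. Without SGFD replicate 2, Cd9 passed as lower (-0.185, adjusted p = 0.0462).

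Among the 10, the granule genes Slc35d3 and Pf4 changed most. Slc35d3 had 5.28, 4.47 and 5.53 FPKM in CD and 0.842, 0.834 and 1.13 FPKM in SGFD. The lowest CD value was well above the highest SGFD value, and the log2 fold change was -1.65 ± 0.10 (SE; adjusted p = 1.14e-06), which understates the ratio of means because of the added 1 FPKM. Of its libraries 3 in CD and 1 in SGFD reached 1 FPKM, so that CD alone was enough for it to be tested. The other 7 tested genes reached 1 FPKM in all 6 libraries. Slc35d3 remained lower and past the threshold in all 15 alternative fits in which it was tested, with log2 fold changes from -2.439 to -1.398.

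Pf4 had 10.4, 12 and 7.77 FPKM in CD and 3.45, 5.7 and 5.49 FPKM in SGFD. The groups did not overlap, but each spread widely around its mean. The log2 fold change was -0.92 ± 0.17 (SE; adjusted p = 0.00108), and all 16 alternative fits called it lower, between -1.179 and -0.695. Ppbp, which lies in the same chemokine family and is one of the most abundant mRNAs of platelets, was below the filter at 0.405 ± 0.167 FPKM in CD and 0.171 ± 0.218 in SGFD.

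Rab27b encodes a small GTPase that guides dense granules to release. It had 1.61, 1.64 and 1.39 FPKM in CD and 1.06, 1.01 and 1.49 FPKM in SGFD. SGFD replicate 3 lay inside the CD range, and the log2 fold change of -0.22, with a 95% interval from -0.47 to 0.02, did not pass (adjusted p = 0.1). Without that library Rab27b passed as lower (-0.321, adjusted p = 0.0256). With all 6 libraries and 0.1 or 0.01 FPKM added in place of 1, the log2 fold change was -0.369 or -0.395. Rab27b did not pass in either fit (adjusted p = 0.104 and 0.106). Its close relative Rab27a, which other blood cells use as well, had 33 to 34.3 FPKM in CD and 39.5 to 41.1 FPKM in SGFD and rose (adjusted p = 0.000685). The difference between the responses of the 2 genes was not tested.

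Fli1 is the transcription factor among the 10, an ETS protein needed to make normal megakaryocytes. Its values were 18.9, 19.3 and 19.2 FPKM in CD and 17.8, 16.7 and 14.5 FPKM in SGFD. SGFD was lower in every library, with replicate 3 the lowest, and the log2 fold change was -0.22 ± 0.07 (SE; adjusted p = 0.0204), 0.09 below the median gene. The call was lost after median-ratio scaling (0.226) and quantile normalization (0.201), and without CD replicate 2 (0.0565), CD replicate 3 (0.0572) or SGFD replicate 3 (0.0564). Its paralog Erg fell from 78 ± 1.62 to 61.4 ± 3.43 FPKM (adjusted p = 0.000213).

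**Figure D2:**
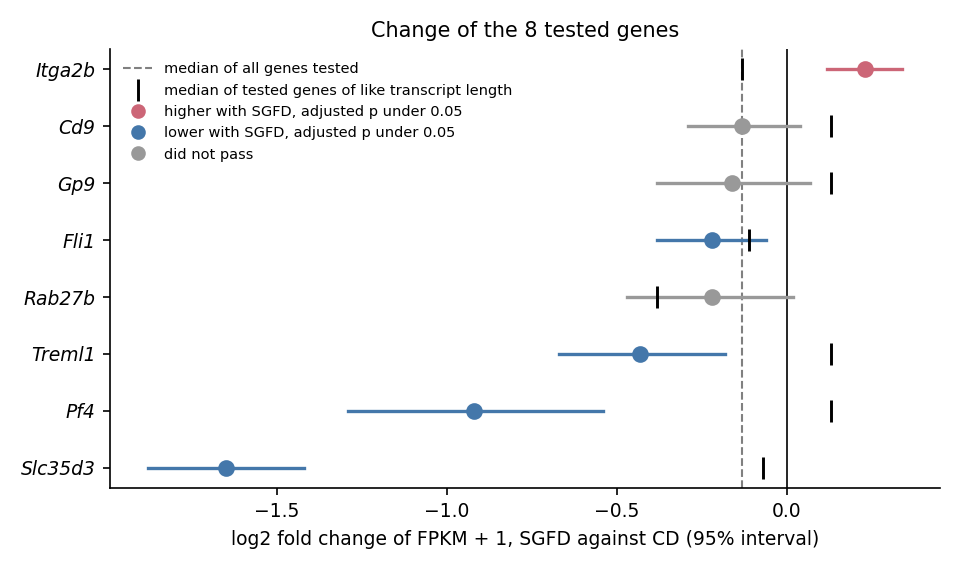
Log2 fold change of FPKM + 1 with SGFD against CD for the 8 tested genes, with 95% intervals from limma; red passed as higher, blue as lower and grey did not pass. The dashed line is the median of all tested genes at -0.13, and the short black bars are the medians of tested genes of like transcript length. Length is that of the longest GENCODE transcript, which for Gp9 is shorter than the authors' values imply. Slc35d3, Pf4 and Treml1 lie farthest below both the line and their bars, and Itga2b lies above both.

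Scaling between libraries set which of the smaller changes passed. As deposited, 29.7% of the changed genes of the whole transcriptome were higher; with median-ratio scaling this was 49.6%, with quantile normalization 47.0% and with the same FPKM sum 14.0%. The median over the tested genes, -0.13 as deposited, moved to -0.02, -0.02 and -0.26 in the same order. Genes called lower numbered 4438 of 10620 as deposited, 2977 after median-ratio scaling, 2552 after quantile normalization and 6334 with the same FPKM sum. Slc35d3 and Pf4 passed as lower under all 4. Gp9 and Rab27b took positive values after quantile normalization, 0.109 and 0.026, and did not pass there. Both passed as lower with the same FPKM sum (0.0414 and 0.0256), as did Cd9 (0.0147). Fold changes also moved with transcript length, from a median of 0.13 in the shortest of 10 bins to -0.38 in the longest. Relative to its own bin, Slc35d3 was at -1.58, Pf4 at -1.05, Treml1 at -0.56, Gp9 at -0.29, Cd9 at -0.26, Fli1 at -0.11, Rab27b at 0.16 and Itga2b at 0.36. Itgb3, the partner of Itga2b, was at 0.46. Bins went by the longest GENCODE transcript, which for Gp9 has 881 bases where the authors' values imply 3102. The bin of Rab27a, with a transcript of 3168 bases, had a median of -0.11, near the -0.16 of Gp9. The value of Gp9 relative to its bin therefore depends on the gene model.

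**Figure D3:**
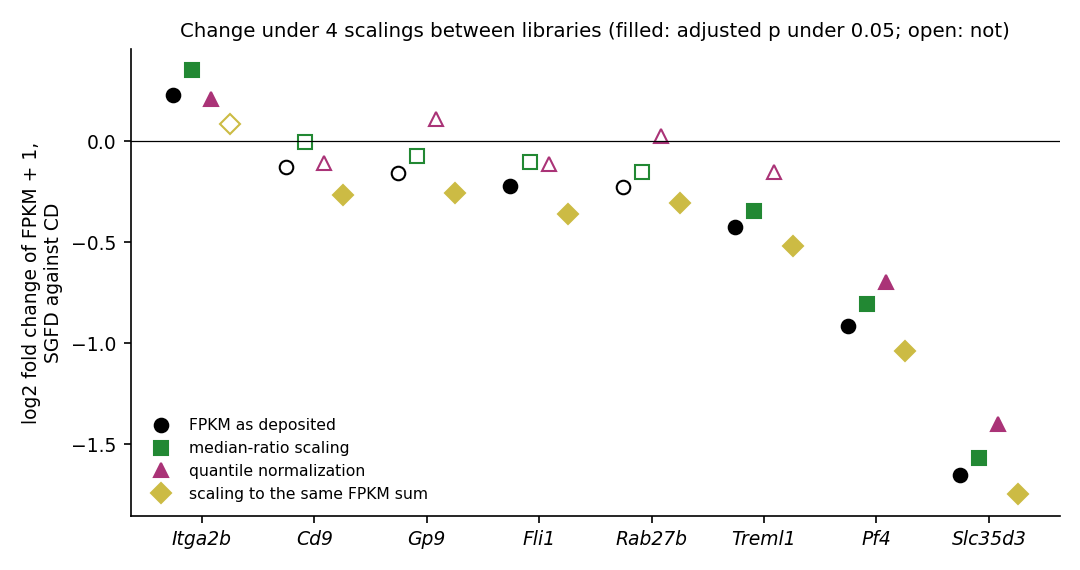
Log2 fold change of FPKM + 1 with SGFD against CD for the 8 tested genes under 4 scalings between libraries, with filled symbols where the adjusted p was under 0.05. Pf4 and Slc35d3 are filled and below 0 under all 4, whereas the other 6 genes (Itga2b, Treml1, Fli1, Cd9, Gp9 and Rab27b) are filled under some scalings and open under others.

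Other genes linked to megakaryocytes and platelets, though not confined to them, were read from 7 lists. Of their 120 tested genes 63 were lower and 13 higher, where 41.8% of all tested genes were lower and 17.7% higher. The median was -0.19 on the log2 scale, beside -0.13 for all tested genes. The counts of each list below stand beside the same shares. The transcription factors were the most one-sided list by count. Of 21, 18 fell and none rose, with a median of -0.40, and under the 3 other scalings 17 to 20 fell and none rose. Zfpm1, the GATA cofactor FOG1, fell from 40.8 ± 0.906 to 24.8 ± 1.03 FPKM, Nfe2, a factor for platelet release, from 91.8 ± 1.24 to 63.9 ± 3.39, and Gata1 from 6.98 ± 0.645 to 4.7 ± 0.341. Meis1, Lmo2 and Gata2, which stem cells use as well, fell too. Meis1 fell from 37 ± 1.42 to 22.8 ± 1.68 FPKM. Klf1 and Gata1, both counted among the falls of this list, are also among the erythroid markers below.

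In the list of thrombopoietin and collagen receptor signalling 12 of 20 tested genes fell and none rose, with a median of -0.23. After median-ratio scaling 10 fell and 3 rose. The kinase gene Syk fell from 40.4 ± 1.56 to 28.3 ± 0.494 FPKM and the adaptor gene Lat from 34.4 ± 0.479 to 24.4 ± 2.31. Relative to their own length bins, Syk was at -0.21 and Lat at -0.46 on the log2 scale.

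Granule genes other than the 10 fell in 12 of 24 cases and rose in 2, with a median of -0.20. Slc18a2, which loads monoamines into dense granules, had 21.2, 21.6 and 20.7 FPKM in CD and 11, 11.3 and 9.31 in SGFD (adjusted p under the threshold in all 4 scalings). Nbeal2, needed for alpha granules, fell from 25.2 ± 1.67 to 13.4 ± 2.08 FPKM, Mmrn1, an alpha granule protein, from 16.5 ± 0.657 to 9.31 ± 0.679, and Lyst from 7.79 ± 0.385 to 4.67 ± 0.391. Relative to their own length bins, Nbeal2 was at -0.49, Mmrn1 at -0.55 and Lyst at -0.25 on the log2 scale. Srgn, a proteoglycan of granules in many blood cells, rose from 172.8 ± 0.685 to 209.5 ± 4.37 FPKM, though not after quantile normalization (0.326). Vwf, an alpha granule protein and a marker of platelet-primed stem cells, had 2.67 ± 0.335 FPKM in CD and 2.67 ± 0.17 in SGFD (adjusted p = 0.98), and passed as higher after quantile normalization (0.0431). Relative to its own length bin, Vwf was at 0.39 on the log2 scale. Among 10 tested genes of granule release 4 fell and 2 rose, with a median of -0.05; median-ratio scaling turned this to 2 and 4. Sytl4, which binds Rab27 proteins, fell from 3.28 ± 0.325 to 1.11 ± 0.0962 FPKM, and Unc13d, a priming factor, from 37.4 ± 0.529 to 27.5 ± 1.61.

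Other surface receptors split, with 8 of 17 lower and 4 higher and a median of -0.20. Of the 8, Itga2 reached 1 FPKM in CD alone. Jam3, also lower, reached it in 3 CD libraries and 1 SGFD library. For both, CD alone was enough to pass the filter. After quantile normalization 3 were lower and 4 higher. Selp, the adhesion receptor P-selectin of platelets and endothelium, rose from 9.61 ± 0.498 to 20.5 ± 0.414 FPKM (adjusted p = 7.82e-07), in the opposite direction to Pear1, which fell from 24.3 ± 0.441 to 13.3 ± 1.68. Esam, an adhesion protein shared with stem cells, fell from 14.7 ± 0.861 to 10.5 ± 0.164 FPKM. Cd47, which shields blood cells from phagocytes, rose from 86.6 ± 0.517 to 103.4 ± 6.65 FPKM, but not after quantile normalization (0.0651) or with the same FPKM sum (0.0949). Of 15 tetraspanins 6 fell and 1 rose, with a median of -0.12, a share of lower genes near the 41.8% of all tested genes. Cd81 fell from 73.7 ± 1.06 to 54.3 ± 1.07 FPKM and the leukocyte tetraspanin Cd53 rose from 57.2 ± 0.506 to 80.2 ± 3.59, while Cd63 had 100 ± 4.78 and 92.7 ± 1.69 and did not pass (adjusted p = 0.0573). With the same FPKM sum 12 of the tetraspanins fell, where 6334 of all 10620 genes did. Among 15 cytoskeletal genes of platelet shedding 5 fell and 4 rose, with a median of -0.01. The balance turned with the scaling: 3 fell and 6 rose after median-ratio scaling, 8 and 3 after quantile normalization, and 10 and 4 with the same FPKM sum. As deposited, Diaph1 fell and Cfl1, Arpc1b, Tuba4a and Tpm4 rose, Tuba4a from 99.3 ± 3.92 to 124.9 ± 7.09 FPKM. The log2 fold change of Diaph1 was -0.24, but 0.05 relative to its own length bin. Arpc1b did not pass after quantile normalization (0.701). Tubb1, the tubulin of platelets, was below the filter at 0.323 ± 0.245 and 0.0695 ± 0.0792 FPKM.

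**Figure D4:**
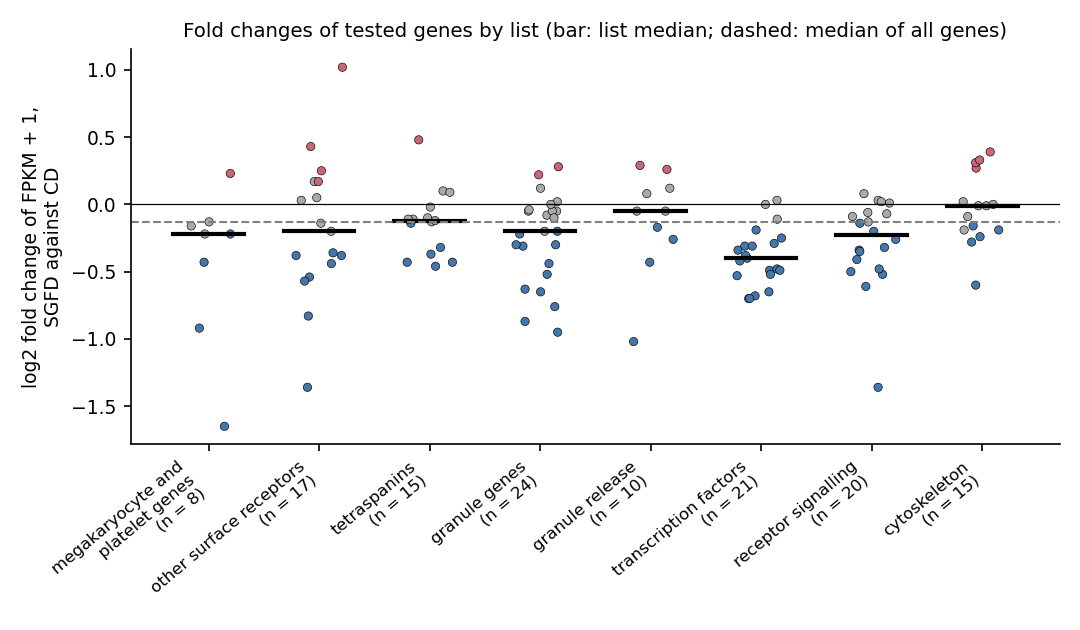
Log2 fold change of FPKM + 1 with SGFD against CD for the tested genes of each list, red where they passed as higher and blue as lower, with a bar at each list's median and a dashed line at the median of all tested genes. The transcription factors have no red point, and the 10 genes of megakaryocytes and platelets are represented by the 8 that were tested.

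The sorted cells held mRNAs that mark several blood lineages, and these moved with the diets as well. For comparison with the counts that follow, 41.8% of all tested genes fell and 17.7% rose. Of 8 defining markers of megakaryocytes and platelets outside the 10, 4 passed the filter, 2 fell and none rose, which is near those shares. Of the 2, Gp5 lost its call after median-ratio scaling and after quantile normalization. Clec1b, Ppbp and Tubb1 stayed below 1 FPKM in every library. Of 7 tested erythroid markers 6 fell, the list's sum going from 261.8 to 266.1 FPKM in CD to 130.4 to 137.2 in SGFD. Most of that sum was Car2, with 192.2 ± 3.17 FPKM in CD and 89.4 ± 1.99 in SGFD, and most of the lymphoid sum was Dntt, with 321.7 ± 16.8 and 284 ± 15.3. LT-HSC markers fell in 13 of 15 cases (sums of 421.0 to 421.9 and 247.3 to 255.6 FPKM), and granulocyte and monocyte markers rose in 13 of 14, of which 1 passed the filter through SGFD alone (1044.2 to 1080.4 and 3746.8 to 4157.3). Macrophage markers fell in 7 of 7, of which 6 passed the filter through CD alone (18.7 to 19.8 and 3.88 to 4.26), lymphoid markers in 5 of 7 with 1 rise, 2 of the 7 having passed through CD alone (444.0 to 482.0 and 415.8 to 463.0, Cd3e at 0), and basophil, mast cell and eosinophil markers rose in 4 of 5 (34.1 to 39.0 and 59.6 to 69.9). Of the antigens the sort selected against, Cd34 mRNA had 470.7 ± 15.4 FPKM in CD and 428.7 ± 8.58 in SGFD, and Flt3, which encodes CD135, had 113.7 ± 1.19 and 90.5 ± 3.72, so both mRNAs were abundant in cells gated as negative for the proteins. How far the sorted cells were LT-HSCs was not tested. The part of the shifts of these lists in the changes of the 10 genes was not tested. In sorted bulk samples, fewer cells of a type and less RNA per cell cannot be told apart.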

How the data were processed

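RNA sequencing gave 6 libraries, 3 per diet. The authors deposited 1 value per gene and library, read here as FPKM (fragments scaled to gene length and library depth by the authors) from the pattern of the values, since no source used here states a unit. For 15506 of 15509 genes above 0, the values in all libraries matched whole fragment numbers within 0.02 fragments. Tools in the submitters' processing notes are fastp, StringTie and HISAT2, all without a version, with mm10 and GRCm38 as builds. Groups came from the sample titles.

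The log2(FPKM + 1) values were fitted by limma 3.58.1 under R 4.3.3 (trend and robust moderation), two-sided, with Benjamini-Hochberg adjustment over 10620 genes and a threshold of 0.05. Genes below 1 FPKM in more than 3 of 6 libraries were left out. Lists were described by counts and medians, without a set test. The genes and lists were chosen with earlier results of these data known. The text names all 10 genes, up to 5 genes of smallest p from each list and the partners or paralogs of the 10. Some results on other genes are not reported here. Promoter windows came from RefSeq (GRCm38.p6), and transcript lengths from GENCODE M21 for 96.9% of tested genes. Alternatives were other pseudocounts (0.1 and 0.01), filters (none, or 5 FPKM), 3 scalings, array quality weights, no variance trend, a replicate block, a threshold of 0.01 and leaving out each library.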

Additional observations from a re-analysis of the deposited data

How the results depend on the processing

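The count of lower genes among the 10 was 4 as reported, 2 with a filter of 5 FPKM, where fewer genes were tested, 2 after quantile normalization and 7 with the same FPKM sum. Over all genes the lower calls moved too, from 4438 to 2552 after quantile normalization and 6334 with the same FPKM sum. Leaving out 1 library gave 3 to 5. The count of higher genes was 1, and 0 with the same FPKM sum; leaving out 1 library gave 1 each time. Over the 7 pathway lists the lower genes numbered 63, or 58 to 66 with 1 library left out, 50 after median-ratio scaling, 60 after quantile normalization and 92 with the same FPKM sum. The higher genes numbered 13, or 12 to 15 with 1 library left out, and 25, 12 and 9 under the 3 scalings in that order. For these changes between scalings the cause was not tested. Array quality weights gave 6 lower genes among the 10, adding Gp9 (0.0257) and Rab27b (0.0119). At a threshold of 0.01 the call for Fli1 was lost. The replicate number as a replicate block left 4 of the 10 lower and 1 higher, and 61 lower and 13 higher over the lists. Deviations from the diet means had correlations across genes of -0.007, -0.227 and -0.133 for same-numbered libraries. Differently numbered libraries had -0.095 to 0.216. With 3 libraries per diet these values cannot show whether same-numbered libraries shared a batch or a pairing. Fragment numbers limit Gp1bb, Treml1 and Pf4 most.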

Other observations

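Among the SGFD libraries, replicate 3 had the highest values of Slc35d3 (1.13 FPKM), Treml1 (1.74), Gp9 (2.26) and Rab27b (1.49), and the lowest of Itga2b (40.9), Cd9 (26) and Fli1 (14.5). The first 4 of these genes had lower levels than the other 3 in every library. Replicates have no order, and no test of this pattern was made.

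Thbs1, an alpha granule protein that monocytes and macrophages also make, had 0.235 ± 0.0397 FPKM in CD and 0.772 ± 0.15 in SGFD without overlap, below the filter of 1 FPKM and so without a test. It was named after its values were seen.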
